A study of Mus musculus with 4 samples.

Results

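Car3, Thy1, Hdc and Penk were chosen as genes with very large falls in expression when WNT secretion was blocked in the embryonic mouse ureter, and all probes that carry their names in the array files were taken. They are 4 of 29924 gene names on the array, and each is represented by 1 probe printed in 4 spots. Ureters of NMRI wildtype mouse embryos (E12.5, sex not determined) were kept as explants on membranes in medium without serum, either with 10 µM IWP-2 or, as control, with the solvent DMSO (2:1000), and both groups were cultured for 18 h. Each of the 4 two-colour Agilent arrays compared RNA of 1 pool of treated ureters with RNA of 1 pool of control ureters, with the treated RNA in red on arrays 1 and 3 and in green on arrays 2 and 4. A pool joins the ureters of many embryos, both the epithelial tube and the mesenchyme around it. The labels number the pools separately for each array, while another passage of the study counts fewer pools, and p-values measure the spread between arrays, which may be partly technical. The fold changes of the 4 genes chose them, so they are given below as a description and without a test. In whole explants fewer cells of a type and less RNA per cell cannot be told apart.

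WNT ligands need a lipid that the enzyme Porcupine attaches before they can leave the cell, and IWP-2 inhibits this enzyme. In cells that receive a WNT signal, beta-catenin enters the nucleus and joins TCF/LEF factors at their target genes. In the early ureter, epithelial WNT ligands signal to the inner mesenchyme, from which the smooth muscle layer forms. The 4 genes belong to unrelated families. Car3 encodes carbonic anhydrase III, a cytosolic enzyme abundant in skeletal muscle and fat. Thy1 encodes a small surface glycoprotein (CD90) held in the membrane by a glycosylphosphatidylinositol (GPI) anchor and known from T cells, neurons and fibroblasts. Hdc encodes histidine decarboxylase, the enzyme that makes histamine and is known from mast cells and basophils. Penk encodes proenkephalin, the precursor from which the opioid peptides Met-enkephalin and Leu-enkephalin are cut.

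The probes are shown first, since every value for these genes rests on 1 oligonucleotide of 60 bases each. The last 30 bases are given 5′ to 3′ as printed in the array files, with the polyadenylation signal AATAAA in capitals where it occurs.
Car3: ctcacccagaagcatgaatttcacacctaa
Thy1: aggaaagaaaactgcacAATAAAaccaagc
Hdc: ccacaacagattgtaactgggaagtttaag
Penk: atctctcctgacgaaacatcAATAAAtgct
The signal lay in the shown bases of 2 of the 4 probes, starting 13 bases before the probe's end in Thy1 and 10 bases before it in Penk. On the mm9 build of the file headers, the Car3 probe lies at chr3:14871781-14871840 on the plus strand and the Thy1 probe at chr9:43856591-43856650 on the plus strand. The Hdc probe lies at chr2:126419516-126419575 and the Penk probe at chr4:4060724-4060783, both on the minus strand. The probes have a GC content of 45.0% (Car3), 43.3% (Thy1), 41.7% (Hdc) and 35.0% (Penk). Which exon or untranslated region the probes match was not analysed here, for want of an annotation of the same build.

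The RefSeq promoter table used here holds a sequence for Hdc, and none was taken for Car3, Thy1 and Penk. It is shown because Hdc is among the largest falls after WNT inhibition and the window could be searched for the letters that TCF/LEF factors bind. The 250 bases before the Hdc start (GRCm38.p6, chr2:126618679-126618928, minus strand) read in the direction of the gene, with the match to a TCF/LEF core in capitals:
Hdc: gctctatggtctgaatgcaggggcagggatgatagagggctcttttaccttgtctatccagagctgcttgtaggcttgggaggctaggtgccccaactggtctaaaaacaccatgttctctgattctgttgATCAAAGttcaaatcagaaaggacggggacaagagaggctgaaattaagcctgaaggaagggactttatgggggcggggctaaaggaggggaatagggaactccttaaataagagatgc
The core CTTTGAT was searched on both strands and occurred 1 time, on the reverse strand, 119 bases before the start. Of the 32851 promoter windows of the same length in the table, 3.21% held this core. The variant CTTTGAA (4.46% of the windows), the TATAAA box (12.4%) and the CCAAT box (33.8%) were not among these letters. Either form of the core occurred in 7.48% of the windows. A match of this kind is a description of the letters and does not show that a factor binds there.

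Car3 gave a bright signal in control ureters and was lower with IWP-2 on every array. The mean raw intensity of its 4 spots in the control channel was 44943, 82061, 46776 and 115010 on arrays 1 to 4. In the treated channel it was 10717, 4135, 10661 and 4609. The levels of a channel follow the dye, with red brighter than green, so that the ratio within an array and not the raw level across arrays is compared. After background correction and loess normalisation, the log2 ratio of IWP-2 over control was −3.04, −3.55, −2.95 and −3.51, with a mean of −3.26 ± 0.31 (SD, n = 4 arrays). This corresponds to a signal 9.60-fold higher in control than in treated ureters. The ratios fell into pairs by dye order, and all 4 were −2.95 or lower. By Feature Extraction's own processed signals, 12.3%, 8.28%, 13.2% and 8.56% of the control signal was left.

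Thy1 was lower with IWP-2 on every array, with the smallest spread of the 4 genes. Its raw intensity was 5493, 8065, 6117 and 11249 in the control channel and 1115, 449.9, 1118 and 606 in the treated channel of arrays 1 to 4. The log2 ratios were −3.14, −3.48, −3.13 and −3.25, with a mean of −3.25 ± 0.16 (SD, n = 4 arrays) and a 9.52-fold higher signal in control. The ratio on array 2 was the lowest, and the other 3 lay between −3.25 and −3.13. The processed signal left was 10.8%, 7.90%, 10.9% and 9.67% of control.

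Hdc was lower with IWP-2 on every array, and of the 4 genes its value moved most with the background correction. Its raw intensity was 1767, 4889, 3281 and 5086 in the control channel and 379, 261, 550.1 and 319.6 in the treated channel. On array 1 both channels were lower than on array 3, which has the same dye order. The log2 ratios were −3.03, −3.50, −3.25 and −3.02, with a mean of −3.20 ± 0.23 (SD, n = 4 arrays) and a 9.19-fold higher signal in control. Arrays 1 and 4, which differ in dye order, gave nearly the same ratio. The processed signal left was 9.68%, 7.20% and 9.34% of control on arrays 1 to 3, and the share on array 4 was the highest.

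Penk was lower with IWP-2 on every array and varied most between arrays, with the treated channel of array 1 furthest from the others. Its raw intensity was 51056, 67536, 50747 and 104170 in the control channel and 20538, 3925, 9966 and 5872 in the treated channel. Arrays 1 and 3 have the same dye order and nearly the same control signal, but the treated signal on array 1 was higher than on array 3. The log2 ratios were −2.35, −3.36, −3.17 and −3.00, with a mean of −2.97 ± 0.44 (SD, n = 4 arrays) and a 7.84-fold higher signal in control. Without array 1 the mean was −3.18. The processed signal left was 20% on array 1 and 9.48%, 11.3% and 12.2% on arrays 2 to 4. The value of array 1 did not lie far enough from the others to pass Dixon's criterion for 4 samples.

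**Figure D1:**
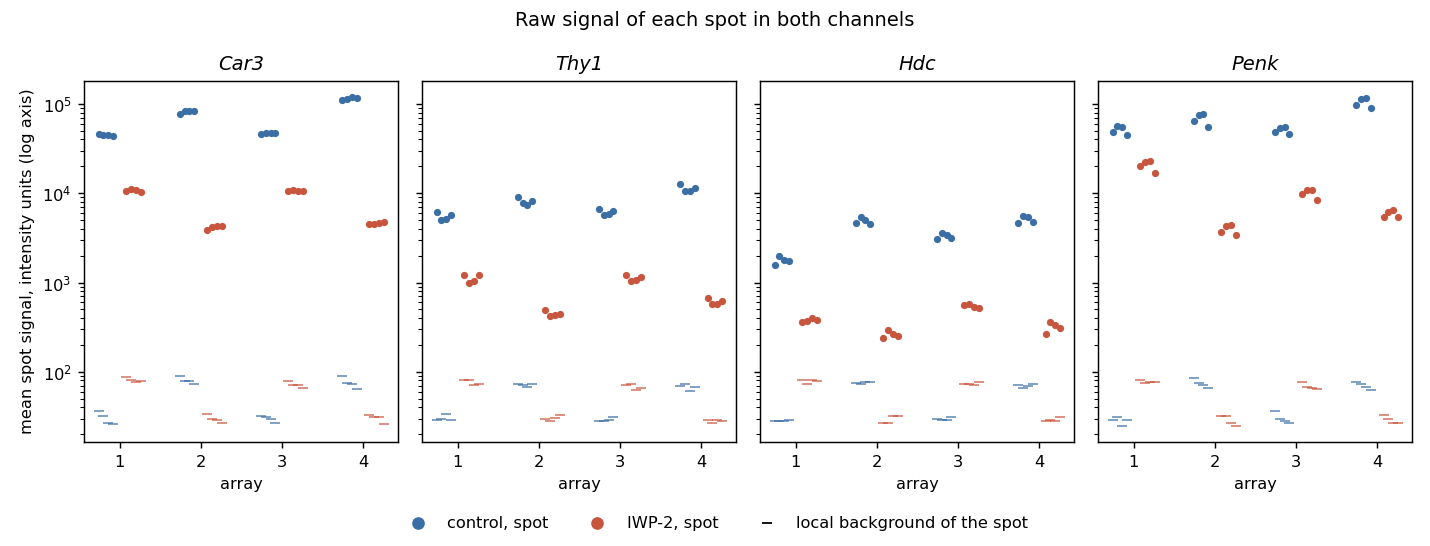
Raw mean intensity (log axis) of each of the 4 spots per array for Car3, Thy1, Hdc and Penk in control (blue) and IWP-2 (red-brown) channels of arrays 1 to 4, with short bars for the local background of the same spot. In 16 of 16 gene and array pairs every control spot lay above every treated spot, which follows from the choice of genes with large falls. The share over all genes is not given here. Every treated spot lay above its background.

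The single spots were closely grouped, and the treated signals were measured and not lost in the background. For the 4 genes, 64 spot measurements were made in each channel, of which 0 were marked as outliers and 0 were saturated, and 64 of 64 treated spots were well above background. In 16 of 16 gene and array pairs the raw control and treated spots did not overlap, which follows from the choice of genes with large falls. These raw levels also differ by dye, and the share of all genes with separate spots is not given here. The genes were chosen on this contrast, in which 15% of all genes tested were called lower (limma, adjusted p under 0.05). The treated signal was 143.6 ± 9.49 times the local background for Car3, 16.8 ± 3.2 times for Thy1, 8.06 ± 2.62 times for Hdc and 187.9 ± 60.3 times for Penk (SD, n = 4 arrays). The spot closest to its background was 1 of Hdc on array 1, at 4.55 times the local background and 7.77 pixel SDs of that background above it. Each array also carries 17214 negative control spots, which match no mouse transcript. Of these, 4 on array 1 and 1 on array 4 were brighter in the treated channel than the dimmest treated Hdc spot, and 0 were brighter than the dimmest treated spot of Car3, Thy1 or Penk. The dimmest treated spot of any of the 4 genes was 4.06 or more times the 99th percentile of the negative controls of its array and channel. The ratios of the 4 genes are thus measured on both sides and are not bounds.

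**Figure D2:**
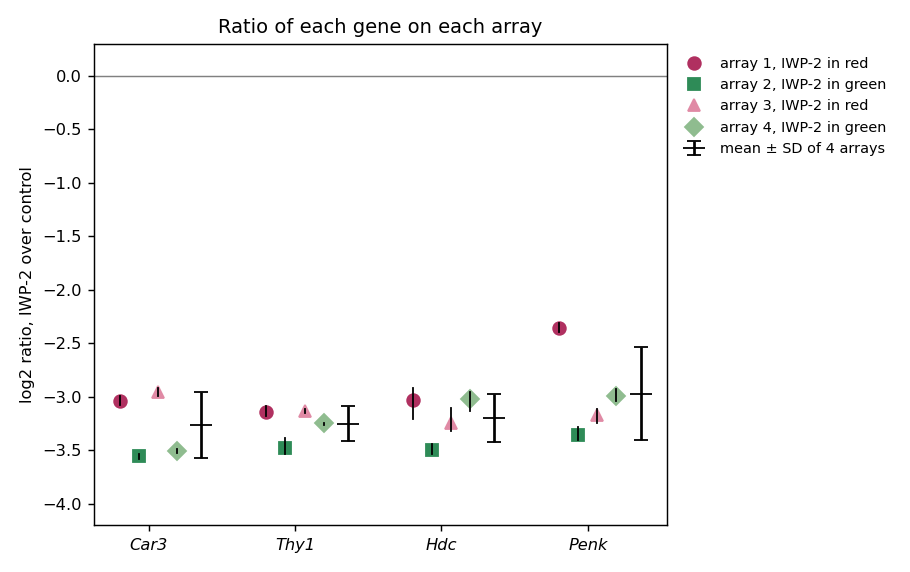
Log2 ratio of IWP-2 over control for the 4 genes on each array (symbols, coloured by the dye of the treated RNA), with the range of the 4 spots (thin lines) and the mean ± SD of the 4 arrays (bars). The ratios lie between −3.55 and −2.35, and the treated-red arrays 1 and 3 sit above the treated-green arrays 2 and 4 for Car3 and Thy1 alone.

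The spread between arrays was larger than the spread between spots. The SD between arrays was 11.2 times the mean SD between spots of an array for Car3, 4.76 times for Thy1, 2.61 times for Hdc and 8.61 times for Penk. Over all 22455 genes tested the median SD between arrays was 0.11, and over the 204 genes called with a change of at least 2-fold it was 0.18. The SD of Thy1 lay below the latter value and those of the other 3 above it.

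A part of this spread moved with the dye order, which the balanced design separates from the treatment. The mean ratio of the treated-red arrays minus that of the treated-green arrays was 0.53 for Car3, 0.23 for Thy1, 0.12 for Hdc and 0.41 for Penk. The change was thus on average smaller on treated-red arrays for all 4, but array by array this held for Car3 and Thy1 alone. The treated-red array 3 changed more than the treated-green array 4 for Hdc (−3.25 against −3.02) and Penk (−3.17 against −3.00). The dye term of the limma fit passed the threshold for 0 of 22455 genes (0% called, lowest adjusted p 0.122), and for 4233 genes (18.9%) its p before adjustment was under 0.05. Its limma p was 0.000409 for Car3 (adjusted p = 0.150), 0.0567 for Thy1 (adjusted p = 0.276), 0.480 for Hdc (adjusted p = 0.712) and 0.161 for Penk (adjusted p = 0.423). With median centring in place of loess, the limma dye term passed for Car3 (0.55, adjusted p = 0.000109), Thy1 (0.24, adjusted p = 0.0105) and Penk (0.51, adjusted p = 0.0139), and was 0.15 for Hdc (adjusted p = 0.140). The mean over the balanced arrays, which is the value reported for each gene, does not contain the dye term.

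The order of the 4 genes was not resolved, with 1 partial exception. Ranked by the mean log2 ratio over all 22455 genes tested, Car3, Thy1, Hdc and Penk held ranks 2 to 5 among the falls. Rank 1 was held by Avpr1a, a vasopressin receptor (−4.12 ± 0.23), and rank 6 by Sp5, a transcription factor and known WNT target (−2.72 ± 0.28). Within arrays, Car3 was lower than Thy1 on 2 of 4 arrays, with a mean difference in log2 ratio of −0.01 ± 0.19. Thy1 was lower than Hdc on 2 of 4 arrays (−0.05 ± 0.15), and Car3 was lower than Hdc on 3 of 4 (−0.06 ± 0.32). These differences were smaller than the spread between arrays. Hdc was lower than Penk on 4 of 4 arrays, by between 0.03 and 0.68, and the mean of −0.23 ± 0.30 was also smaller than its SD. Car3 and Thy1 were each lower than Penk on 3 of 4 arrays, by −0.29 ± 0.40 and −0.28 ± 0.36 on average. The study kept genes by cut-offs on intensity and fold. With these set here to 100 and 2 on the processed signals, all 4 genes passed both on 4 of 4 arrays. Passing the fold cut-off follows from the choice of genes with large falls, and the share of all genes that passed both is not given here. The treated processed signal of Hdc was 55.3 on array 1 and 71.4 on array 2, so that only its control channel was above 100 there.

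The genes with the ratios most like theirs were largely the other members of the group. Likeness was taken as the Euclidean distance between the log2 ratios of the 4 arrays, among 19036 genes with a name. For Car3 the 3 nearest genes were Thy1 (0.336), Hdc (0.567) and Penk (0.903). Thy1 and Hdc were nearest to each other (0.277). For Penk the nearest were Sp5 (0.596), Hdc (0.697) and Foxl1 (0.753), a forkhead transcription factor. Sp5 had ratios of −2.39, −3.06, −2.78 and −2.66, and Foxl1 had ratios of −1.86, −3.04, −2.93 and −2.59. In Penk, Sp5 and Foxl1 alike array 1 held the weakest and array 2 the strongest change. This order was not particular to them. Of the genes given below, Axin2, Apcdd1, Car13, Slc22a2 and Slc22a3 had it too, while Lef1 and Nkd1 did not. Since distance weighs the size of a change, the few genes with falls as large are near by construction.

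**Figure D3:**
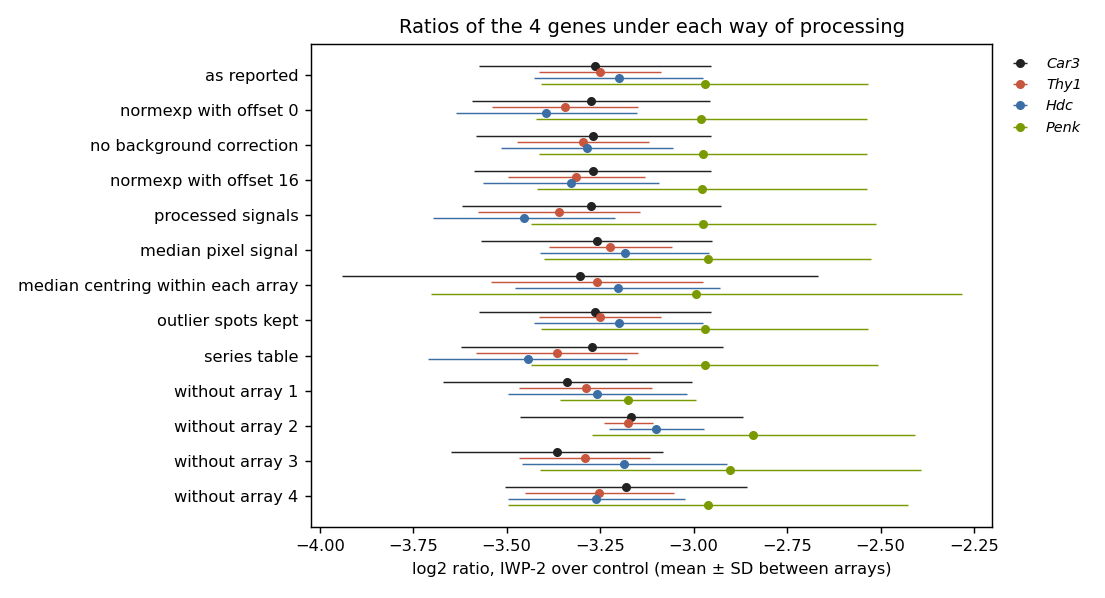
Mean log2 ratio ± SD between arrays of the 4 genes under each way of processing, with the reported values at the top. Car3 and Penk hardly moved with the background correction, while Hdc ran from −3.20 as reported to −3.45 with the processed signals.

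The size of the change depended on the background correction for the dimmer probes. The correction adds an offset of 50 intensity units to both channels, which draws ratios towards 0 where the treated signal is low. With an offset of 0 the mean log2 ratio of Hdc was −3.39 ± 0.24, a 10.5-fold difference, and that of Thy1 was −3.34 ± 0.19, a 10.2-fold difference. Car3 (−3.27 ± 0.32) and Penk (−2.98 ± 0.44) stayed close to their reported values. With the processed signals Hdc had the lowest value of the 4, at −3.45 ± 0.24, followed by Thy1 at −3.36 ± 0.22, Car3 at −3.27 ± 0.35 and Penk at −2.97 ± 0.46. The order of Car3, Thy1 and Hdc thus changed with the correction, while Penk had the smallest mean change in each of these settings.

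The treatment check showed lower WNT target expression on these arrays. All 5 of the listed WNT targets (Axin2, Lef1, Nkd1, Sp5 and Apcdd1) were lower by limma, with mean log2 ratios from −2.72 to −1.47. Over all genes, 7428 of 22455 were called at an adjusted p under 0.05 (33.1% called), 3360 lower (15% called) and 4068 higher (18.1% called), and the median log2 ratio was 0.00. Genes of the 5 family and pathway lists around the 4 genes were read against this background. Of 72 listed genes 66 were tested, of which 18 were lower, 19 were higher and 29 did not pass the test (56.1% called), with a median log2 ratio of 0.00. Changes of 2-fold or more were made by 6 genes that were lower and 1 that was higher.

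**Figure D4:**
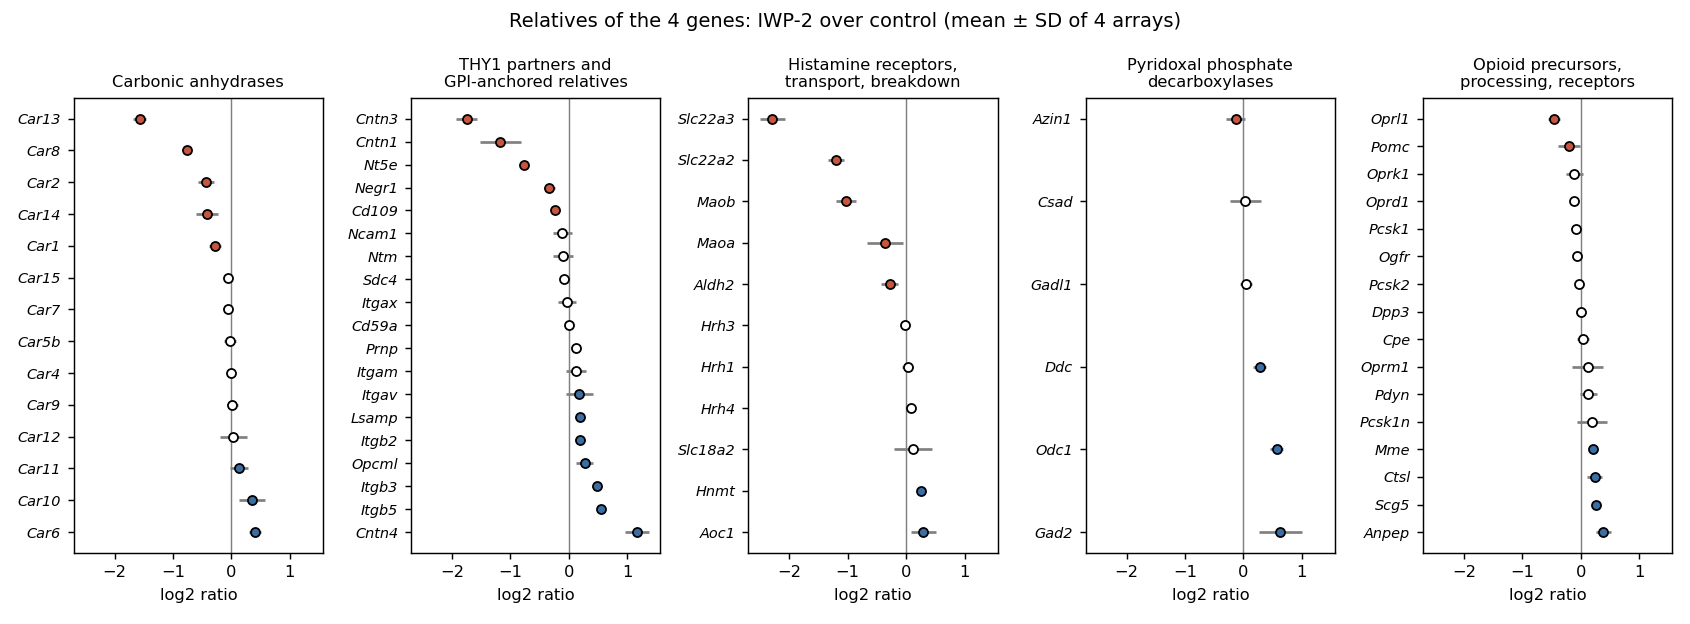
Mean log2 ratio of IWP-2 over control ± SD (n = 4 arrays) for the tested relatives of the 4 genes in 5 lists, with filled circles for genes called lower (red-brown) or higher (blue) by limma at an adjusted p under 0.05 and open circles for the rest. Slc22a3 has the lowest value at −2.29, and the only change upwards beyond 1 is that of Cntn4 at 1.16.

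The carbonic anhydrases, enzymes that interconvert CO2 and bicarbonate, did not move as a family. Of the 14 tested relatives of Car3, 5 were lower, 3 were higher and 6 did not pass the test (57.1% called against 33.1% of all genes), and their median log2 ratio was −0.04. The lowest was Car13, another cytosolic isoform, at −1.57 ± 0.11 (adjusted p = 8.19e-06, limma), with a lower signal on 4 of 4 arrays. Car8, a related protein without catalytic activity, was at −0.76 ± 0.08 (adjusted p = 7.18e-05). Car2, the widespread and highly active cytosolic isoform, was at −0.44 ± 0.13, the membrane-bound Car14 at −0.42 ± 0.18 and the red cell isoform Car1 at −0.28 ± 0.11. The secreted Car6 was higher at 0.41 ± 0.10, as was the noncatalytic Car10 at 0.35 ± 0.23. Car11 was higher at 0.14 ± 0.15, and this call was lost under 9 of 13 alternatives, including the omission of any of the 4 arrays, where its value was 0.12 to 0.15. The membrane-anchored Car4 had a log2 ratio of 0.00 ± 0.04, and Car5a was not well above background.

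Among the integrin partners of THY1 and its GPI-anchored relatives, changes ran in both directions. Of 19 tested genes 5 were lower, 7 were higher and 7 did not pass the test (63.2% called against 33.1% of all genes). Their median was 0.00. Of the 6 listed integrin subunits of THY1 receptors 4 were higher, with Itgb5 at 0.55 ± 0.06 (adjusted p = 0.000348, limma), Itgb3 at 0.48 ± 0.08 (adjusted p = 0.000667) and Itgb2 at 0.19 ± 0.08. Itgav was at 0.18 ± 0.23. The call of Itgb2 was lost without array 2 (0.19) or array 3 (0.15), and that of Itgav without array 1 (0.13), array 2 (0.16) or array 4 (0.20). Itgam, Itgax and Sdc4 had log2 ratios between −0.08 and 0.12 and did not pass. The contactins, GPI-anchored adhesion molecules of axons, split. Cntn3 was lower at −1.75 ± 0.18 (adjusted p = 3.20e-05) and Cntn1 at −1.17 ± 0.35 (adjusted p = 0.000183), while Cntn4 was higher at 1.16 ± 0.21 (adjusted p = 5.05e-05). Nt5e, the GPI-anchored enzyme CD73 that makes adenosine, was lower at −0.77 ± 0.03, Negr1 at −0.33 ± 0.09 and Cd109 at −0.23 ± 0.07. The adhesion molecules Opcml (0.28 ± 0.15) and Lsamp (0.19 ± 0.08) were higher. The call of Opcml was lost without array 1 (0.19), and that of Lsamp without array 1 (0.15) or array 2 (0.18). Neither Ncam1 at −0.11 ± 0.16 nor Ntm at −0.10 ± 0.18 passed the test.

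Around histamine, the organic cation transporters Slc22a2 and Slc22a3 and the monoamine oxidases Maoa and Maob were lower, the histamine-degrading enzymes Hnmt and Aoc1 were higher, and no receptor passed the test. Of 11 tested genes 5 were lower, 2 were higher and 4 did not pass (63.6% called against 33.1% of all genes), with a median of −0.02. Slc22a3, an organic cation transporter that carries histamine and other amines, was at −2.29 ± 0.21 (adjusted p = 7.07e-06, limma), and ran from −2.05 on array 1 to −2.55 on array 2. Its relative Slc22a2 was at −1.20 ± 0.14 (adjusted p = 2.67e-05). Maob, a monoamine oxidase, was at −1.03 ± 0.17 (adjusted p = 0.000102), its paralog Maoa at −0.36 ± 0.31 and Aldh2, an aldehyde dehydrogenase, at −0.28 ± 0.14. The enzymes that break down histamine itself were higher, Hnmt at 0.26 ± 0.06 and Aoc1 at 0.29 ± 0.21. The call of Aoc1 was lost without array 2 (0.25) or array 3 (0.17). The receptors Hrh1 (0.03 ± 0.10), Hrh3 (−0.02 ± 0.07) and Hrh4 (0.08 ± 0.07) did not pass, Hrh2 was not well above background, and the vesicular transporter Slc18a2 was at 0.12 ± 0.33.

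Among other decarboxylases, most of which use pyridoxal phosphate like HDC, and their regulators, Gad2, Odc1 and Ddc were higher. Of 6 tested genes 1 was lower, 3 were higher and 2 did not pass (66.7% called against 33.1% of all genes). Their median was 0.16. Gad2, which makes the transmitter GABA, was at 0.63 ± 0.36, Odc1, the first enzyme of polyamine synthesis, at 0.57 ± 0.11 (adjusted p = 0.000711, limma) and Ddc, which makes dopamine and serotonin, at 0.28 ± 0.11. Azin1, which counteracts the inhibitor of ODC1, was at −0.14 ± 0.16, and this call was lost without any of the 4 arrays, at values from −0.15 to −0.12. Csad and Gadl1 were at 0.03 ± 0.26 and 0.05 ± 0.10.

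In the opioid system around Penk, the share of genes called was near that of all genes. Of 16 tested genes 2 were lower, 4 were higher and 10 did not pass the test (37.5% called against 33.1% of all genes), with a median of 0.03 and a range of −0.46 to 0.38. Of the other opioid precursors, Pomc was at −0.20 ± 0.18 and Pdyn at 0.13 ± 0.14, and Pnoc was not well above background. The call of Pomc was lost without array 3 (−0.18) or array 4 (−0.17). Of the receptors, Oprl1, which binds nociceptin, was lower at −0.46 ± 0.10 (adjusted p = 0.00137, limma), while the enkephalin receptors Oprd1 (−0.11 ± 0.08) and Oprm1 (0.12 ± 0.27) did not pass. Neither did the convertases Pcsk1 (−0.09 ± 0.07) and Pcsk2 (−0.03 ± 0.06) and the carboxypeptidase Cpe (0.04 ± 0.10), which cut enkephalins from the precursor. The convertase chaperone Scg5 was higher at 0.26 ± 0.07, as was the protease Ctsl at 0.24 ± 0.13. The call of Ctsl was lost without array 2 (0.20) or array 3 (0.18). The membrane peptidases that degrade enkephalins were higher, Anpep at 0.38 ± 0.13 and Mme at 0.21 ± 0.06, and the call of Mme was lost without array 3 (0.18).

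Markers of the cells in which the 4 genes are best known were examined as a set of facts beside these results. Of 65 listed genes 47 were tested, 5 were lower and 22 higher (57.4% called), and none changed 2-fold. Over all genes 33.1% were called, 15% lower and 18.1% higher. The counts of each marker list stand beside these shares. Sums of processed signal over a list are given as ranges over the 4 arrays. Of 12 mast cell and basophil markers, 5 (Cma1, Mcpt4, Mcpt8, Fcer1a and Ms4a2) were above background on 0 arrays in either channel and Cpa3 on 3. Of the 6 tested, 0 were lower and 4 higher, namely Kit (0.46 ± 0.08), Hpgds (0.28 ± 0.13), Tpsb2 (0.14 ± 0.11) and Srgn (0.14 ± 0.07). The calls of Tpsb2 and Srgn were lost without any of the 4 arrays, at 0.12 to 0.17. The sum ran from 1748 to 2671 in control and from 2385 to 3466 with IWP-2, and these ranges overlapped. The part of mast cells in the Hdc result was not tested.

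Of 10 T cell markers, which bear on Thy1, Cd3d, Cd3g and Cd2 were above background on 0 arrays and Cd8a on 1 control and 2 treated channels. Of the 6 tested, 0 were lower and 2 higher (33.3% called against 33.1% of all genes), Ptprc at 0.36 ± 0.13 and Lck at 0.17 ± 0.11. The sum ran from 1361 to 1626 in control and from 1490 to 1913 with IWP-2. The call of Lck was lost without array 2 (0.15) or array 3 (0.14). Of 10 neuron markers, which bear on Thy1 and Penk, all were tested, 1 was lower (Syt1 at −0.33 ± 0.19) and 6 were higher, from Th at 0.18 ± 0.24 to Nefm at 0.39 ± 0.15, with Elavl3, Stmn2 and Nefl between them. The calls of Th (0.14 each) and Nefl (0.17 and 0.25) were lost without array 1 or array 2. The neuron sum ran from 17550 to 27050 in control and from 21070 to 30360 with IWP-2.

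For Car3 the cells in question are fat and skeletal muscle. Of 8 adipocyte markers, Adipoq, Cfd, Lep and Cidec were above background on 0 arrays, and of the 4 tested, 0 were lower and 1 higher (Lpl at 0.27 ± 0.32, a call lost under 2 of 13 alternatives, median centring and no dye term). Their sum ran from 6079 to 10990 in control and from 8028 to 12790 with IWP-2. Of 10 skeletal muscle markers, Ckm and Myf5 were above background on 0 arrays and Myog and Chrna1 on 1 control and 2 treated channels. Of the 6 tested, 3 were lower, namely Acta1 (−0.49 ± 0.19), Tnnt3 (−0.33 ± 0.11) and Actn3 (−0.29 ± 0.26), and 0 were higher, while Myod1 was at −0.04 ± 0.18. The call of Actn3 was lost under 3 of 13 alternatives, the processed signals, the series table and no dye term. Those of Acta1 and Tnnt3 were each lost under 1 of 13, the series table. The muscle sum ran from 417.8 to 561 in control and from 308.8 to 416 with IWP-2. The highest treated sum thus lay just below the lowest control sum, and the sums are not compared within arrays here. The part of muscle cells in the Car3 result was not tested.

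The tissue itself was represented in both channels. All 8 mesenchyme markers and all 7 epithelium markers were above background in the control channel of 4 of 4 arrays. In the mesenchyme list 1 gene was lower, Tbx18 (−0.74 ± 0.26), a transcription factor of the ureteric mesenchyme, and 2 were higher, Twist1 (0.85 ± 0.08) and Pdgfrb (0.80 ± 0.07). The call of Tbx18 was lost under 1 of 13 alternatives, and those of Twist1 and Pdgfrb were kept under all. The mesenchyme sum ran from 111700 to 158900 in control and from 124400 to 160300 with IWP-2. All 7 epithelium markers were higher, from Cldn7 at 0.24 ± 0.13 to Krt18 at 0.34 ± 0.14, with Epcam, Cdh1, Krt8, Krt19 and Cldn4 between them. Over all genes 18.1% were called higher. The calls of Krt19 and Cldn4 were lost without array 3 (0.18 and 0.21), and that of Krt19 also without array 2 (0.22). Over all 13 alternatives the call was lost under 5 for Krt19, 2 for Cldn4 and 1 each for Krt8, Krt18 and Cldn7. Epcam and Cdh1 kept theirs. The epithelial sum ran from 40880 to 54040 in control and from 46390 to 67150 with IWP-2. The part of these shifts in the results for the 4 genes was not tested.

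The nearest tested genes on each side were examined for all 4 genes, which were themselves chosen for the size of their fall. Of these 16 genes, taken as 2 on each side, 7 were lower and 0 were higher, where 15% of all genes were called lower and 18.1% higher, and the lowest mean log2 ratio was −0.69. Beside Car3 lie Car1, with its probe at −104 kb, and Car2, with its probe at 28.4 kb, at −0.28 and −0.44 as given above. Between Car1 and Car3 an unnamed transcript was at −0.08 ± 0.09, and 5830468K08Rik, at 1240 kb, was at −0.13 ± 0.23. Beside Thy1, C1qtnf5 (−0.69 ± 0.19, adjusted p = 0.000142, limma), Usp2 (−0.49 ± 0.09) and LOC102643243 (−0.41 ± 0.09) were lower, while Pvrl1 was at −0.03 ± 0.21. Beside Hdc, the fatty acid transporter gene Slc27a2, whose probe lies at −5.63 kb from that of Hdc on the reference strand, was lower at −0.32 ± 0.09. Atp8b4 (−0.14 ± 0.09), Gabpb1 (−0.07 ± 0.08) and A630026N12Rik (−0.10 ± 0.29) did not pass. Without array 1 limma called Atp8b4 (−0.20) and 5830468K08Rik (−0.22). Beside Penk, A830012C17Rik (−0.52 ± 0.05, adjusted p = 0.000394) was lower, and Chchd7 (0.00 ± 0.12), ENSMUST00000081864 (−0.05 ± 0.31) and Impad1 (−0.10 ± 0.23) did not pass.

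**Figure D5:**
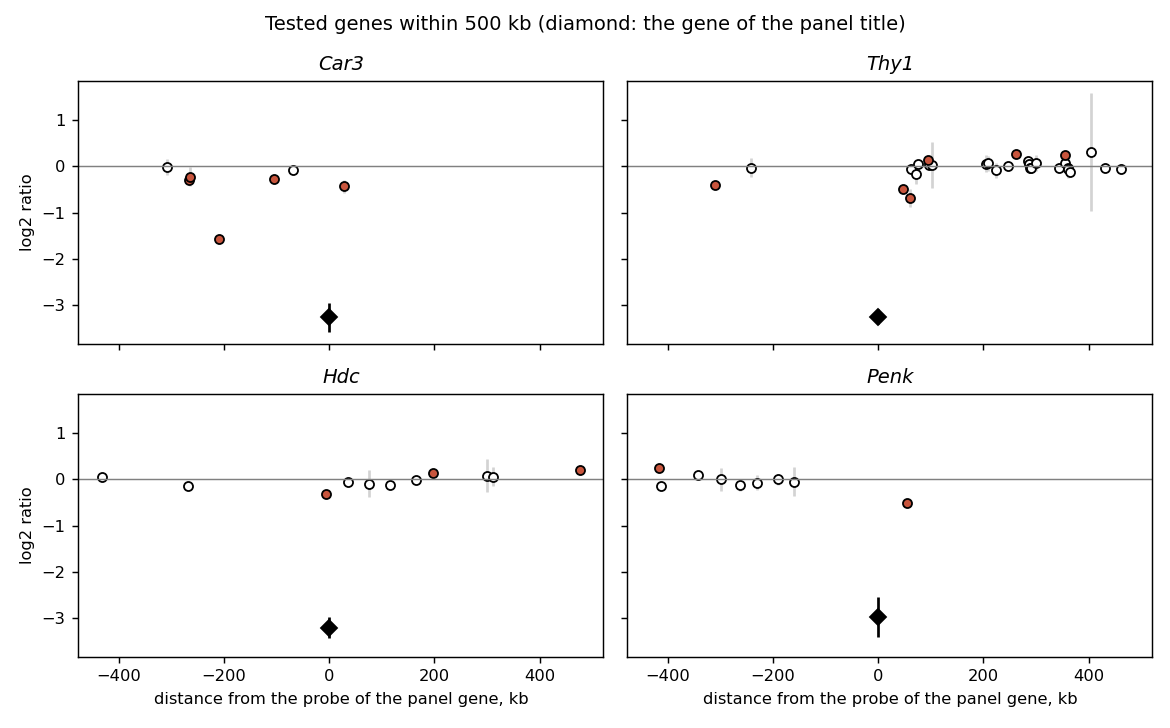
Mean log2 ratio ± SD (n = 4 arrays) of every tested gene whose probe lies within 500 kb of the probe of Car3, Thy1, Hdc or Penk (diamond), against the distance in kb, with filled circles for genes called by limma. The neighbour with the lowest value is Car13 beside Car3 at −1.57, and all others lie between −0.69 and 0.31.

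Within 500 kb, a window chosen after the values were seen, 56 genes were tested, of which 10 were lower and 6 higher. A change of 2-fold was seen in 1 of them, Car13, whose probe lies at −209 kb from that of Car3 near Car1 and Car2. Over all genes 15% were called lower and 18.1% higher. Around Car3 5 of 7 tested genes were lower and 0 were higher, and 3 of these 5 were carbonic anhydrases (Car13, Car1 and Car2). Around Thy1 3 of 29 were lower and 3 higher, around Hdc 1 of 11 was lower and 2 higher, and around Penk 1 of 9 was lower and 1 higher.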

How the data were processed

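By the labels, RNA of 4 treated and 4 control pools was measured on 4 two-colour arrays, while another passage of the study counts fewer pools. The scanned arrays were quantified with Agilent Feature Extraction 10.7.3.1 before deposition. The deposited files give per spot a mean intensity, a local background intensity and a processed intensity. Per the file headers, the processed intensity is background-subtracted and dye-normalised. The log10 ratio per spot deposited by the authors served only to check direction, and the flags deposited with each spot (saturation, outlier, well above background) were used as given. The authors' series table holds signed fold scores, rounded, with a normalisation not given in the sources used here. It followed the processed ratios with r of 0.910 to 0.919 over 22455 probes and served as an alternative.

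Mean intensities were corrected with normexp (offset 50) and loess (span 0.3) in limma 3.58.1 (R 4.3.3). Control spots had weight 0 in loess, spots marked as outliers (3.01% to 3.38%) were left out, and the spots of a probe were averaged. A gene was tested if more than 0.5 of its probe's spots were well above background in 1 channel on all 4 arrays, and the brightest probe stood for it. Ratios were fitted with lmFit and eBayes on treatment and dye, with Benjamini-Hochberg adjustment over 22455 genes and 0.05 as threshold, two-sided. All ratios were taken as treated over control on the log2 scale. The number of arrays limits the precision. The 4 arrays lie on 1 slide and 1 scan.

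The members, gene lists and tests were chosen with earlier results of these data known. The text names all genes of the 5 family lists and the marker lists that passed the test, the 2 nearest tested genes on each side, the 3 nearest by pattern and those ranked next to the 4 genes. Of these, 1 gene that is part of the counts is not reported here by name. Alternatives were the background correction, signal column, normalisation, outlier spots, series table, dye term, channels, filters and leaving out each array. The fit was tested on simulated data. Figures were drawn with matplotlib 3.10.9.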

Additional observations from a re-analysis of the deposited data

Results flagged for a closer look

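In 9 of 137 genes examined (the 4 genes, the tested relatives and markers, the neighbours and the genes nearest by pattern), 1 array lay far from the other 3 by Dixon's criterion, where chance gives about 1 in 20, or 6.85 of 137. Car3, Thy1, Hdc and Penk were not among them. Car1 had a log2 ratio of −0.44 on array 3 against −0.24 to −0.21 on the others. Itgb2 had 0.31 on array 3 against 0.14 to 0.16, and Pvrl1 −0.34 on array 3 against 0.06 to 0.09. On array 1, Maob had −0.78 against −1.15 to −1.09, Mme 0.11 against 0.23 to 0.25, and Slc27a2 −0.45 against −0.29 to −0.26. Gabpb1 had −0.18 on array 4 against −0.03 on each of the others. Dpp3, an enkephalin-degrading peptidase that did not pass the test, had −0.12 on array 2 against 0.05 to 0.06, and the muscle marker Myh8 had −0.10 on array 1 against −0.01 on each of the others.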

How the results depend on the processing

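The log2 ratios of Car3, Thy1, Hdc and Penk kept their sign under all 12 alternatives run for them. Leaving out 1 array gave −3.37 to −3.17 for Car3, −3.29 to −3.17 for Thy1, −3.26 to −3.10 for Hdc and −3.18 to −2.84 for Penk. Hdc moved beyond its SD with the processed signals (−3.45) and the series table (−3.44), and the cause was not tested. The dye terms passed the threshold with median centring for Car3 (0.55), Thy1 (0.24) and Penk (0.51). Over all genes, 2050 were lower and 1833 higher with the series table, 2068 and 2033 with the 8 channels as separate samples, and 2180 to 2813 and 2878 to 3345 without 1 array, the fewest lower calls coming without array 3. Using the series table, 7 family genes and 8 markers were higher and 0 markers were lower. The 83 other named genes include neighbours that were not called and so had no call to lose. Of the called ones, 43 lost their call under some alternative, 24 of them with the series table alone. Among the 83, 0 called values changed sign. The causes were not tested. Each array pairs 1 treated with 1 control pool, so that the fit on ratios is the paired analysis and the 8 channels as separate samples are its unpaired counterpart. Treated signal over local background was lowest for Hdc. Its mean log2 ratio was −3.20 as reported, −3.39 with an offset of 0 and −3.29 without background correction. Which of these values lies nearest the true fall was not tested, and each gene rests on 1 probe.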
